A study of Mus musculus with 10 samples.

Results

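Cluster 0 of the colonic cells is a group of leukocyte-rich cells in the deposited cell annotation, where it carries a number and no cell type name. It holds 310 of the 25204 cells kept in the series and of the 3065 kept colonic cells, and its members were taken as the cells with that annotation. The series is single-cell RNA-sequencing, with 10x Genomics 3′ V3 chemistry, of mouse intestine, with 8 libraries of cultured organoids and 2 of colonic crypts, of which the last are used here. The normal library holds crypts from the colon of normal mice, and the DSS library holds crypts from mice given dextran sulfate sodium, a chemical that injures the colonic epithelium. The methods give 2.5% DSS in the drinking water for 5 days, followed by normal water, and 8-week-old female mice for the colitis model. C57BL/6 is the wild-type strain that the methods name, without tying it to these libraries. The number of mice pooled and the day on which the crypts of these libraries were taken are not given in the sources used here, and no sort or gate is stated.

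There were 151 cluster 0 cells in the normal library and 159 in the DSS library. Each condition is 1 library, so no test between the conditions was possible and every difference below is a description of a pair of libraries. Intervals in parentheses are exact 95% intervals (Poisson for levels, Clopper-Pearson for shares) and cover counting error only. Levels are counts of unique molecular identifiers (UMIs, 1 per captured transcript molecule) summed over the cluster 0 cells of a library and given as CPM, the count scaled to a library total of 1e6 UMIs of those cells, which numbered 559734 in the normal and 657493 in the DSS library. A cluster 0 cell held a median of 3693 UMIs in the normal and 3924 in the DSS library, and the libraries' kept cells held medians of 18374.5 and 16051. The median mitochondrial share of a cluster 0 cell was 5.06% and 5.24%. The cell barcodes of cluster 0 shared by both libraries numbered 0, and 2 were shared among all kept colonic cells. The libraries also differed in transcripts of the sex chromosomes. Xist, the RNA that silences an X chromosome in female cells, had a UMI in 134 of 151 normal cluster 0 cells and in 0 of 159 DSS cells. A UMI of the Y-linked genes Ddx3y, Eif2s3y, Uty or Kdm5d was in 0 normal cells and in 98 DSS cells (61.6%). The other kept cells of the libraries showed the same split, with Xist in 844 of 981 normal and 3 of 1774 DSS cells. The Y-linked transcripts of the DSS library go against the female mice of the methods, and sex and DSS treatment cannot be told apart in any difference between these libraries.

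T cells recognise antigen through a receptor made of α and β chains or of γ and δ chains, which signals through the CD3 proteins. In the intestine many T cells sit between the epithelial cells as intraepithelial lymphocytes. They are known for the integrin chain CD103 (Itgae), for receptors shared with natural killer (NK) cells and, in the cells described as natural or unconventional, for CD8 built of α chains alone in place of the αβ co-receptor of conventional cytotoxic T cells.

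Cluster 0 carried the transcripts of T cells. Ptprc, the pan-leukocyte phosphatase CD45, had a UMI in 131 of 151 normal cells (86.8%, 80.3 to 91.7) and in 143 of 159 DSS cells (89.9%, 84.2 to 94.1). The 20 normal and 16 DSS cells without a Ptprc UMI each held at least 3 UMIs of the T cell genes Cd3d, Cd3e, Cd3g, Trac, Trbc1, Trbc2 and Trdc. At least 1 such UMI was in every cluster 0 cell, and at least 3 in 151 normal and 158 DSS cells, with a median per cell of 35 and 37. Cells thinned at random to 2000 UMIs allow shares to be compared at 1 depth, which left 143 normal and 154 DSS cluster 0 cells and took out 8 and 5. The comparison cells were those of the colonic clusters in which at most 50% of cells held a Ptprc UMI, called Ptprc-poor from here on, of which 864 normal and 1332 DSS cells reached that depth. After thinning, Ptprc had a UMI in 70.6% (62.4 to 77.9) of normal and 68.8% (60.9 to 76.0) of DSS cluster 0 cells, against 0.231% and 0.676% of Ptprc-poor cells, a contrast that the choice of these cells fixed.

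The CD3 chains were found in most cells of both libraries. Cd3g, which encodes the CD3γ chain and lies on chromosome 9 (44969572 to 44980431, mm10), stood at 2331 CPM (2207 to 2461) in the normal and 2252 CPM (2139 to 2370) in the DSS library. Its level in the Ptprc-poor cells was 1.26 and 1.08 CPM. At 2000 UMIs it was in 95.8% of normal and 93.5% of DSS cluster 0 cells, and in 0.116% and 0.225% of Ptprc-poor cells. Cd3e (CD3ε) stood at 2176 and 1933 CPM and Cd3d (CD3δ) at 1009 and 948 CPM, in that order of libraries, which is used throughout. The receptor's β-chain constant genes gave 1969 and 2210 CPM for Trbc2 and 977 and 1072 CPM for Trbc1, a near-identical pair whose reads may be split between them. The α-chain constant gene Trac stood at 570 and 745 CPM. Levels of different genes, and sums of lists set side by side below, are not compared as amounts, because 3′ counts were used as they stand.

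The start regions of the CD3 genes and of Xcl1 are shown because these genes mark the cluster against the Ptprc-poor cells in both libraries. The CD3 genes do not set it apart from cluster 11, another colonic cluster with T cell UMIs. Against cluster 11 the log2 ratios were 0.02 and -0.14 for Cd3g and -0.04 and -0.02 for Cd3e. They were -0.08 and 0.10 for Cd3d and 3.40 and 2.06 for Xcl1. Cd3g and Cd3d lie head to head on chromosome 9 with Cd3e beside them, and Xcl1 encodes a chemokine for dendritic cells. The sequences are the 250 bases before the RefSeq gene start in GRCm38.p6, read 5′ to 3′ on the strand of the gene, at chr9:44980432-44980681 (minus strand, Cd3g), chr9:44981536-44981785 (plus, Cd3d), chr9:45009612-45009861 (minus, Cd3e) and chr1:164935523-164935772 (minus, Xcl1). Capitals mark the letters AGGAAG (the core of ETS factor motifs) and TGTGGT (the core of RUNX motifs) on either strand.
Cd3g: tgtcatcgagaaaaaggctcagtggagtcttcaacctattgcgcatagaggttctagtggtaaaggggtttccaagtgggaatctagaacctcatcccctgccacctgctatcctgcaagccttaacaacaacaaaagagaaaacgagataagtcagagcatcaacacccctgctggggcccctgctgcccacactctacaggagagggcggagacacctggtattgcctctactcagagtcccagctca
Cd3d: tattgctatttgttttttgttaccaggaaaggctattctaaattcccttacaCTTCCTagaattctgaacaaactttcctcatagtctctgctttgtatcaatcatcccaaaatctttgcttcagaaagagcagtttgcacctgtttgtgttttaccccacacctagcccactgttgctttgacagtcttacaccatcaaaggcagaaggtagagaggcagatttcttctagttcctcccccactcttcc
Cd3e: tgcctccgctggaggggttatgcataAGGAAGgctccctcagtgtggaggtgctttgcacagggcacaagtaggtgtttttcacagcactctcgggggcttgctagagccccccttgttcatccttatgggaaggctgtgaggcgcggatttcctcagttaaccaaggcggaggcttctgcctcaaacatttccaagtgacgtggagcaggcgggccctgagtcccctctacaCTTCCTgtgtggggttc
Xcl1: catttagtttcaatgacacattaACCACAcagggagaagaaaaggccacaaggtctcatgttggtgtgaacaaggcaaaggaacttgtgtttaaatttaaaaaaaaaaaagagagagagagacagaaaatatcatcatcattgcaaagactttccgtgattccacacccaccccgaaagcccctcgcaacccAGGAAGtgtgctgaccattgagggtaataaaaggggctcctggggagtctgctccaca
AGGAAG was in the windows of Cd3d, Cd3e and Xcl1, and TGTGGT in that of Xcl1. Of the 20 genes that led cluster 0, 12 had an entry, of which 7 held AGGAAG, 4 held TGTGGT and 1 held CAGCTG, an E-box. The same windows of all 27025 promoters held them in 29.2%, 14.2% and 12.8%. A match of letters is a description and not a binding site.

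**Figure D1:**
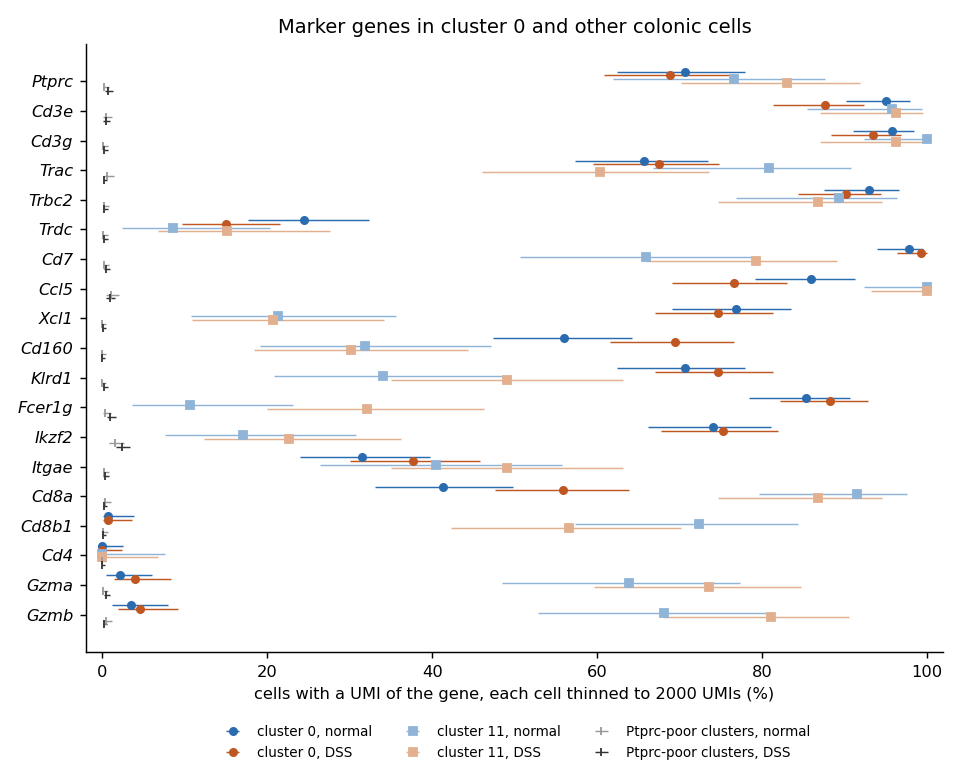
Share of cells with a UMI of each marker gene (x axis, percent) after thinning each cell to 2000 UMIs, with 95% Clopper-Pearson intervals as bars, for cluster 0 (circles), cluster 11 (squares) and the Ptprc-poor clusters (vertical marks), by library. Cd3g lies at 95.8% and 93.5% in cluster 0 and under 1% in the Ptprc-poor cells, and Cd8b1, Cd4, Gzma and Gzmb lie under 5% in cluster 0.

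The genes that stood out most in cluster 0 against the Ptprc-poor cells joined T cell and NK receptor genes. The 20 genes with the largest ratio in both libraries included, in order, Gm156, Mei1, Klra7, Klra5, Cd160, Serpinb6b, Cd3g, Klrb1a, Klrd1, Skap1, Il21r, Cd3e, Cd3d, Tcrg-C2, Xcl1, Trbc2, Cd7, Klra6 and Trbc1. The cells were clustered on such genes, so this list describes the cluster and is no test. The first 10 hold more NK receptor genes than T cell genes, with Cd3g and Skap1 as the latter. The order rests on levels near 0 in the Ptprc-poor cells and is not read further. Klra7, Klra5 and Klrb1a stood there at 0.0656 CPM or less, and Cd3g at 1.26 and 1.08 CPM. The cluster is called T cell-like here because the CD3 and T cell receptor genes were in nearly all of its cells and Cd3g is among the first 10. Cd7, a surface protein of T and NK cells, stood at 4029 CPM (3864 to 4198) and 4062 CPM (3910 to 4219). The adaptor Skap1, which acts below the T cell receptor, stood at 327 and 325 CPM. Il21r, the receptor of interleukin 21, stood at 470 and 327 CPM, and the chemokine Xcl1 at 1472 and 1424 CPM. Gm156 (102 and 186 CPM) and Mei1 (80.4 and 86.7 CPM), a gene named for its part in meiosis, had 0 UMIs in the Ptprc-poor cells of both libraries.

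NK receptors were present in many cells, and the core markers of NK cells in a minority. Klrd1 (CD94), which pairs with NKG2 receptors, stood at 856 and 973 CPM and was in 70.6% and 74.7% of thinned cells. Cd160, a receptor of intraepithelial lymphocytes and NK cells, stood at 509 CPM (452 to 572) and 649 CPM (589 to 714). Klra7, a member of the Ly49 receptors, had UMIs in 37 normal and 30 DSS cells, and Klra5 in 17 and 15. The Ly49 genes are close copies of each other, and their UMIs may be split between them. Fcer1g, a signalling chain that NK cells and some intraepithelial lymphocytes use, was in 85.3% of normal and 88.3% of DSS thinned cells. Ikzf2, the transcription factor Helios, was in 74.1% and 75.3%, while Foxp3, which defines regulatory T cells, had 0 UMIs in both libraries, which allows, at 3 counts over the cells, up to 1.99% of normal and 1.89% of DSS cells with a UMI and sets no limit on cells that express it below detection. Ncr1, the NK receptor NKp46, had 3 and 19 UMIs, and perforin (Prf1) had 1 and 2. Klre1 was in 13.2% and 11.3% of unthinned cells and Klrb1c in 10.6% and 8.81%. The summed NK cell list (Ncr1, Klrb1c, Klre1, Eomes, Klra8 and Prf1) came to 121 and 113 CPM, with a UMI of any of them in 19.9% and 18.9% of unthinned cells, beside 10166 and 10142 CPM for the 12 T cell genes.

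Genes of tissue residence and of the intraepithelial state were carried by different shares of the cells. Rgs1, a regulator of chemokine signalling, was in 81.1% and 82.5% of thinned cells, and Cd69, an early activation and residence marker, in 76.9% and 66.9%. Itgae, the CD103 chain that binds epithelial E-cadherin, stood at 197 CPM (162 to 237) and 240 CPM (204 to 281) and was in 31.5% and 37.7%. Its partner Itgb7 stood at 263 and 301 CPM. Ccl5, a chemokine of memory and cytotoxic T cells, was in 86.0% and 76.6% of thinned cells, at 6864 CPM (6649 to 7085) and 4777 CPM (4612 to 4947). Its level was lower than in cluster 11, by log2 ratios of -2.43 and -2.58. Nkg7 and Ctsw, genes of cytotoxic lymphocytes, stood at 949 and 1272 CPM and at 1386 and 1583 CPM. The granzymes were scarce. Gzma was in 5 normal and 6 DSS cells and Gzmb in 6 and 10, and 39 of the 66 normal Gzma UMIs lay in 1 cell.

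CD8 was present as the α chain almost alone. Cd8a gave 244 UMIs in the normal and 464 in the DSS library, and Cd8b1, the β chain, gave 2 and 3. Cd8a without Cd8b1 was in 67 normal and 103 DSS cells, and a UMI of Cd8b1 in 2 and 3. Cd4 had 0 UMIs in both libraries, which by the same rule of 3 counts allows up to 1.99% and 1.89% of cells with a UMI and, as for Foxp3, sets no limit on cells that express it below detection. The genes lie near each other on chromosome 6, Cd8a from 71373427 to 71379173 and Cd8b1 from 71322788 to 71337494 (mm10). In the same libraries Cd8b1 gave 132 and 111 UMIs in the 49 and 58 cells of cluster 11. Outside cluster 0, this colonic cluster held the most cells with at least 3 T cell UMIs. There the ratio of Cd8a to Cd8b1 UMIs was 1.86 and 2.14, and in cluster 0 it was 122 and 155.

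Most cells held the α chain of the receptor and a smaller share held the δ chain. Cells were not thinned for the shares below, which depend on depth. Trac without Trdc was in 89 normal cells (58.9%, 50.7 to 66.9) and 114 DSS cells (71.7%, 64.0 to 78.5). Trdc without Trac was in 17 (11.3%) and 15 (9.43%), both genes were in 23 (15.2%) and 14 (8.81%), and neither was in 22 (14.6%) and 16 (10.1%). At least 3 Trdc UMIs were in 33 normal cells (21.9%, 15.5 to 29.3) and 19 DSS cells (11.9%, 7.35 to 18.03), intervals that overlap. Trdc lies inside the locus of the α chain, and some of the γ-chain constant genes are close copies, so the classes describe UMIs and not receptor proteins. Over both libraries, the 52 cells with at least 3 Trdc UMIs held Tcrg-C1 at 816 CPM, against 135 CPM in the 203 cells with Trac alone. The other γ-chain genes did not show this over both libraries, with Tcrg-C2 at 286 and 419 CPM and Tcrg-C4 at 329 and 314 CPM. The libraries differed, with Tcrg-C2 at 180 against 351 CPM in the normal and 472 against 466 CPM in the DSS library. Tcrg-C4 stood at 255 against 286 CPM and at 459 against 333 CPM. Of the 52 cells, 28 also held a Trac UMI. In the normal library Cd8a was in 36.4% (20.4 to 54.9) of the cells with at least 3 Trdc UMIs and 51.7% (40.8 to 62.4) of those with Trac alone, intervals that overlap. In the DSS library it was in 42.1% (20.3 to 66.5) and 77.2% (68.4 to 84.5). Over both libraries Ikzf2 was in 86.5% and 89.7% of the classes, Trbc2 in 96.2% and 99.0% and Fcer1g in 82.7% and 92.6%. The β-chain constant gene was thus found in both classes.

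**Figure D2:**
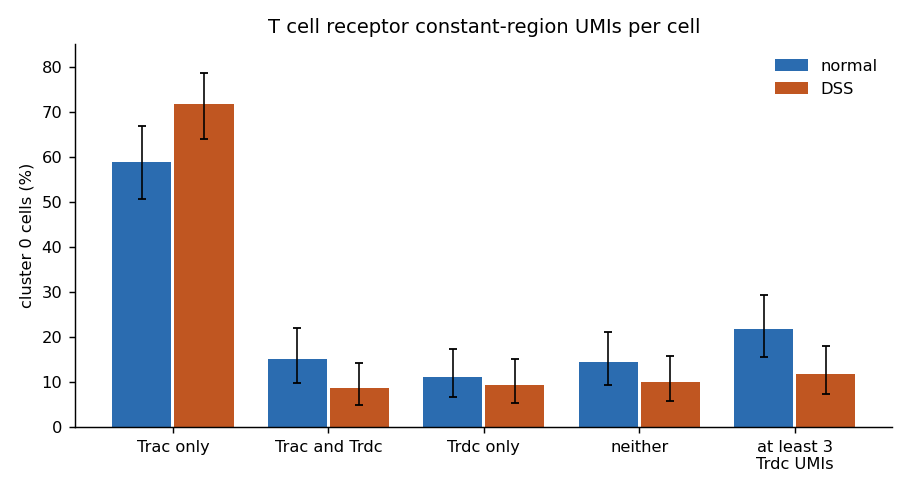
Share of unthinned cluster 0 cells (y axis, percent) by UMIs of the receptor constant genes Trac and Trdc, in the normal library (151 cells) and the DSS library (159 cells), with 95% Clopper-Pearson intervals. The first 4 pairs of bars add up to all cells, and cells with at least 3 Trdc UMIs, which overlap with these, made up 21.9% in the normal and 11.9% in the DSS library.

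The other colonic clusters with many cells of at least 3 T cell UMIs were cluster 11, with 105 such cells, and cluster 18, with 36. Between cluster 0 and cluster 11, 5286 genes were compared, and 93 (1.76%) were at least 2-fold higher and 71 (1.34%) at least 2-fold lower in cluster 0 in both libraries. The clusters were made from the same cells, so these counts are descriptions and carry no test. Lower in cluster 0 were granzyme genes and others, named here after their values were seen. Gzma was lower by log2 ratios of -5.82 and -7.63, with levels in cluster 11 of 7200 and 10111 CPM. Gzmb stood at 2394 and 2890 CPM in cluster 11 and at 37.5 and 38.0 CPM in cluster 0. Gzmk had 0 UMIs in cluster 0 and 593 and 335 CPM in cluster 11. The T cell surface proteins Cd5 and Cd6 stood at 231 and 124 CPM and at 391 and 227 CPM in cluster 11, with 3 and 1 UMIs in all of cluster 0. The cytokine Ifng, interferon γ, stood at 33.9 and 42.6 CPM in cluster 0 and at 812 and 416 CPM in cluster 11.

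Higher in cluster 0 than in cluster 11 were Xcl1, with log2 ratios of 3.40 and 2.06, and the receptor tyrosine kinase Kit, at 113 and 105 CPM against 5.93 and 10.8 CPM. Socs3 and Spry2, inhibitors of cytokine and of growth factor signalling, were higher by log2 ratios of 2.62 and 2.57 and of 4.24 and 2.12. Ighm, the constant gene of the immunoglobulin μ chain, stood at 229 CPM (191 to 272) and 275 CPM (237 to 318) in cluster 0 and at 17.8 and 27.0 CPM in cluster 11. Without thinning, Fcer1g was in 5 of 49 normal and 18 of 58 DSS cells of cluster 11, against 133 of 151 and 149 of 159 cells of cluster 0. Ikzf2 was in 11 and 15 cells of cluster 11, against 128 and 143 of cluster 0. Both clusters held the CD3 genes at like levels, with Cd3g in cluster 11 at 2293 and 2485 CPM. Cluster 18, with 11 normal and 33 DSS cells, was the one of the 3 with Cd4 UMIs, 1 and 9, and its Fcer1g stood at 522 and 46.4 CPM.

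**Figure D3:**
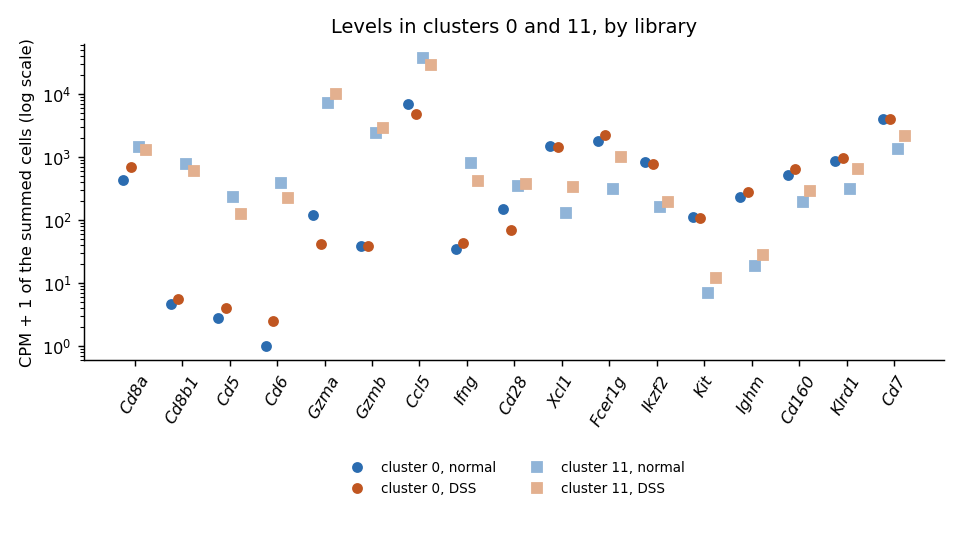
Levels of 17 genes (y axis, CPM + 1 on a log scale) summed over the cells of cluster 0 (circles) and cluster 11 (squares) in the normal and DSS libraries. Gzma, Gzmb, Cd8b1, Cd5 and Cd6 lie lower in cluster 0 in both libraries, and Xcl1, Fcer1g, Ikzf2, Kit and Ighm lie higher.

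The lists of macrophage, dendritic, mast, fibroblast and endothelial cells were at or near 0 in cluster 0, while single members of the B cell, plasma cell and monocyte lists were present. All 10 pan-leukocyte genes had UMIs in at least 50% of cells, with a summed level of 8579 and 8643 CPM. The 12 macrophage genes summed to 12.5 and 12.2 CPM, and 7 of them had 0 UMIs. Dendritic cell genes summed to 19.7 and 21.3 CPM, mast cell genes to 5.36 and 15.2 CPM, and fibroblast genes to 0 and 1.52 CPM. Of the 12 B cell genes 6 had 0 UMIs, and Ighm gave 229 of the 257 normal and 275 of the 322 DSS CPM of that list. Ighm was in 38.5% and 37.0% of thinned cluster 0 cells and in 0.231% and 0.150% of Ptprc-poor cells. Cd79a, a chain of the B cell receptor, had 0 and 2 UMIs. Germinal-centre B cell genes summed to 41.1 and 35.0 CPM. The innate lymphoid lists summed to 73.2 and 89.7 CPM (group 2, with 4 of 6 genes at 0) and 136 and 141 CPM (group 3, with 3 of 6 at 0), and in the latter Kit gave 113 and 105 CPM. The γδ T cell genes summed to 1470 and 1281 CPM. Of the regulatory T cell list, at 892 and 830 CPM, Ikzf2 gave 820 and 770 CPM. Eosinophil and tuft cell genes had 0 CPM, and the lists of erythroid cells and platelets, endothelium, enteric glia and crypt base stem cells each came to at most 10.6 CPM. Enteroendocrine genes summed to 12.5 and 51.7 CPM and colonocyte genes to 291 and 444 CPM. The plasma cell list summed to 130 and 292 CPM, and the monocyte list, in which Plac8 gave 314 and 345 CPM and was in 55.6% and 59.7% of unthinned cells, to 334 and 362 CPM, both below the Ptprc-poor cells of the same library.

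Cluster 0 made up a smaller share of the kept colonic cells in the DSS library. The share was 13.3% (151 of 1132 cells, 11.4 to 15.5) in the normal and 8.23% (159 of 1933, 7.04 to 9.54) in the DSS library. The direction reversed when only cells with at least 1500 genes, the filter named in the methods, were counted, at 6.42% (54 of 841) and 7.21% (101 of 1400). Cluster 0 cells under 1500 genes numbered 97 in the normal and 58 in the DSS library. Among the cells of the 6 of 25 colonic clusters in which over 50% of cells held a Ptprc UMI, cluster 0 made up 68.9% (62.4 to 75.0) in the normal and 35.7% (31.3 to 40.4) in the DSS library. The DSS library held other leukocyte clusters in larger number, with 109 cells in cluster 8 against 7, and 66 in cluster 15 against 0. Shares of cells depend on how many crypt and leukocyte cells were released and loaded, which was not measured.

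Within cluster 0, few genes differed 2-fold between the libraries. Of 4493 genes with at least 30 UMIs, 56 (1.25%) were at least 2-fold higher and 28 (0.623%) at least 2-fold lower in the DSS library, on a scale of log2(CPM + 10) that understates the difference of low genes, and the median over all genes was 0.02. None of the 12 T cell genes passed 2-fold, and their median was -0.07. The median over the 10 pan-leukocyte genes was -0.05, with 0 past 2-fold. Of the 56 higher genes 41 (73.2%) had a higher level in the Ptprc-poor cells than in cluster 0, as had 36.1% of all genes compared. Genes whose level in cluster 0, over both libraries summed, was at least 4 times that in the Ptprc-poor cells, called T cell-biased, numbered 718, and 6 of them (0.836%) were higher and 10 (1.39%) lower in the DSS library. The filter set cluster 0 against Ptprc-poor cells and not against other leukocytes, so the name does not mean that a gene is particular to T cells. Since the libraries were summed, a gene can pass this filter through the library where it is high. The counts of higher and lower genes partly rest on that and are descriptions.

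**Figure D4:**
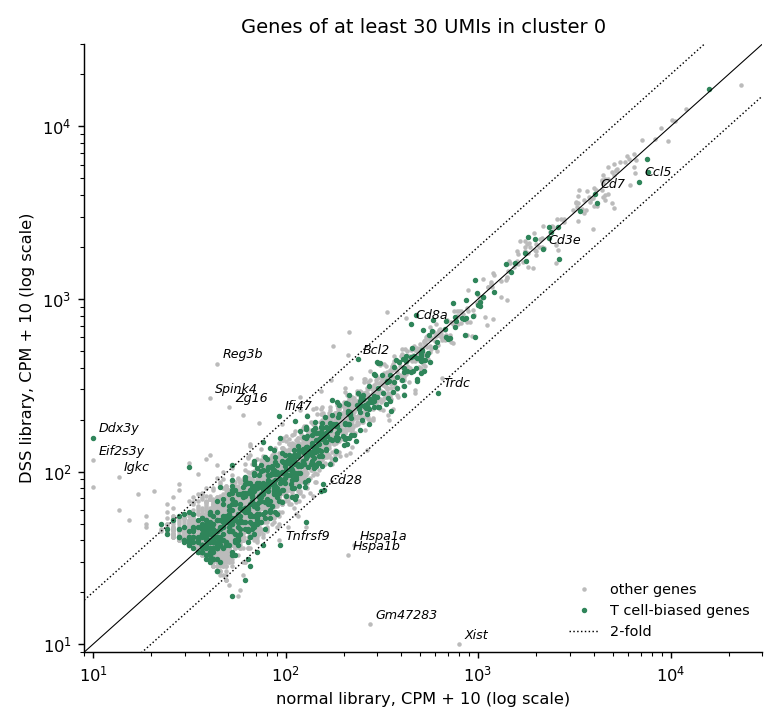
Levels of 4493 genes in cluster 0 of the normal library (x axis) and of the DSS library (y axis), as CPM + 10 on log scales, with T cell-biased genes in green and dotted lines at 2-fold. Cd3e, Cd7 and Ccl5 lie within the 2-fold lines, and among the genes labelled beyond them are sex-chromosome, epithelial, immunoglobulin and heat shock genes.

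The 12 genes highest in the DSS library by ratio were sex-linked, epithelial or immunoglobulin genes. Ddx3y and Eif2s3y had 0 normal UMIs and were at least 27.5-fold and 19.9-fold higher, set against 3 counts in the normal library. Reg3b and Reg3g, antimicrobial lectins of the epithelium, followed, Reg3b at 33.9 CPM (20.4 to 53.0) and 412 CPM (365 to 464) and Reg3g at 0 and 71.5 CPM, at least 13.3-fold higher. In the Ptprc-poor cells Reg3b stood at 1157 and 7131 CPM. The goblet cell genes Spink4, Zg16 and Muc2 were higher by log2 ratios of 2.73, 2.21 and 1.82 in cluster 0 and differed by 0.12, 0.48 and -0.37 in the Ptprc-poor cells. In cells with at least 1500 genes the log2 ratio of Zg16 was 1.48. Igkc, the immunoglobulin κ constant gene, had 2 and 55 UMIs in cluster 0, and 0.89 and 664 CPM in the Ptprc-poor cells. The others of the 12 were Spink1 (2.15), Sval1 (2.11), Sprr2a3 (1.89) and Oit1 (1.83), all at higher levels in the Ptprc-poor cells than in cluster 0.

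The genes lowest in the DSS library included Xist, at least 173-fold lower against 3 DSS counts, and Gm47283, which the annotation places on the Y chromosome and which had 148 normal and 2 DSS UMIs. The heat shock genes Hspa1a and Hspa1b were lower by log2 ratios of -2.60 and -2.68. They were also lower in the Ptprc-poor cells, by -2.75 and -3.07, and in cluster 11, by -3.46 and -1.63. Mptx1, a pentraxin of the intestinal epithelium, stood at 48.2 and 10.6 CPM in cluster 0 and at 7588 and 96.2 CPM in the Ptprc-poor cells. Ifi27l2a, an interferon-induced gene, stood at 118 and 38.0 CPM in cluster 0, and was lower in the Ptprc-poor cells by a log2 ratio of -4.05. The others of the 12 were Ehd3 (-1.47), Mir142hg (-1.38), Tnfrsf9 (-1.33), Agpat5 (-1.25), Mylip (-1.21) and Fbxo30 (-1.20). Tnfrsf9, the activation receptor 4-1BB, had 47 normal and 18 DSS UMIs, and in cluster 11 it stood at 88.9 and 27.0 CPM.

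Among the T cell-biased genes, those higher in the DSS library, named after their values were seen, were Ddx3y, Ccl4, Ifi47, Gm20069, Serpinb9 and Fgr. The bias was taken over both libraries summed, so a gene could pass it through the library where it was high. In the normal library alone, Ddx3y (0 UMIs) and Ifi47 (82.2 against 24.8 CPM in the Ptprc-poor cells) did not reach 4 times. Ifi47, an interferon-induced GTPase, stood at 82.2 CPM (60.2 to 110) and 201 CPM (168 to 238) and was in 14.0% and 31.2% of thinned cells. Its level in the Ptprc-poor cells was lower in the DSS library, at 24.8 and 15.5 CPM. Its log2 ratio in cluster 0 was 1.19. Without the cells holding UMIs of 2 or more epithelial genes it was 0.76, and the 2-fold call was lost. That setting left 91 normal and 25 DSS cells. Serpinb9, an inhibitor of granzyme B, stood at 42.9 CPM (27.5 to 63.8) and 98.9 CPM (76.3 to 126), a log2 ratio of 1.04 that was 0.62 in cells with at least 1500 genes. Fgr, a kinase of the Src family, had 9 and 28 UMIs. The chemokine Ccl4 had 12 and 63 UMIs, of which 34 DSS UMIs lay in 1 cell, and without that cell the DSS level was 44.4 CPM against 14.4 CPM in the normal library without its own highest cell.

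Cd8a, Bcl2 and Bcl2a1b were T cell-biased genes with a higher level in the DSS library that stayed below 2-fold on the log2(CPM + 10) scale, with log2 ratios of 0.68, 0.91 and 0.96. Cd8a stood at 436 CPM (383 to 494) and 706 CPM (643 to 773), a ratio with a counting interval of 1.38 to 1.90, and was in 41.3% (33.1 to 49.8) and 55.8% (47.6 to 63.8) of thinned cells. In cluster 11 Cd8a stood at 1458 and 1286 CPM. Bcl2, which protects cells from apoptosis, stood at 227 CPM (189 to 270) and 437 CPM (387 to 490), and was in 35.7% and 54.5% of thinned cells. Its log2 ratio was 1.01 in cells with at least 1500 genes and 0.60 without the cells holding UMIs of 2 or more epithelial genes. The latter setting left 91 normal and 25 DSS cells. In cluster 11 Bcl2 stood at 53.3 and 162 CPM. Bcl2a1b, of the same family and with close copies, stood at 66.1 and 138 CPM.

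Lower in the DSS library among the T cell-biased genes was Trdc, at 609 CPM (546 to 677) and 277 CPM (238 to 320), with a counting interval of the ratio of 0.377 to 0.546. Thinned cells with Trdc made up 24.5% (17.7 to 32.4) and 14.9% (9.71 to 21.6), and 48 of the 182 DSS UMIs lay in 1 cell. Without the cells holding UMIs of 2 or more epithelial genes its log2 ratio went from -1.11 to -1.77. That setting left 91 normal and 25 DSS cells. In cluster 11 Trdc stood at 231 and 324 CPM. Of the 4 γδ T cell genes compared, Trdc was the 1 past 2-fold, beside 0.623% of all genes and 1.39% of T cell-biased genes lower, and their median was -0.00. Tcrg-C2 had the higher level in the DSS library, at 288 and 421 CPM (ratio interval 1.20 to 1.79), and Tcrg-C1 stood at 291 and 227 CPM. Cd28, the co-stimulatory receptor of T cells, stood at 148 CPM (118 to 184) and 68.4 CPM (49.9 to 91.6), and was in 23.1% (16.4 to 30.9) and 7.14% (3.62 to 12.4) of thinned cells. In cluster 11 it stood at 350 and 378 CPM. Its log2 ratio of -1.01 was -0.92 in cells with a Ptprc UMI. Lef1, a transcription factor of Wnt signalling and of naive T cells, had 34 and 16 UMIs, and Nabp1 37 and 18.

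Genes of epithelial and goblet cells were also higher in cluster 0 of the DSS library. The 10 epithelial genes summed to 934 and 2178 CPM in cluster 0, and to 27994 and 26931 CPM in the Ptprc-poor cells, and 5 of the 9 that were compared were past 2-fold, beside 1.25% of all genes compared. Of 3 colonocyte genes compared 0 were past 2-fold, with a median of 0.09. In unthinned cells, UMIs of at least 2 of 6 epithelial genes were in 60 normal cells (39.7%, 31.9 to 48.0) and 134 DSS cells (84.3%, 77.7 to 89.6). The 6 goblet cell genes summed to 197 and 919 CPM, with 5 past 2-fold and a median of 1.73, and Zg16 was in 3.50% and 35.1% of thinned cells against 9.49% and 20.3% of Ptprc-poor cells. No neutrophil gene had enough UMIs to be compared. The neutrophil list summed to 3.57 and 86.7 CPM, and S100a8 was in 0% and 6.49% of thinned cells against 0% and 3.38% of Ptprc-poor cells. The epithelial list was higher in the DSS library in cluster 11 too, at 723 and 2485 CPM, and in cluster 18 it stood at 1623 and 1654 CPM. The part of free RNA, of attached cells and of doublets in these values was not tested. Leaving out cells with UMIs of at least 2 epithelial genes kept 91 normal and 25 DSS cells, in which 46 of 1787 genes were higher and 74 lower by 2-fold.

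**Figure D5:**
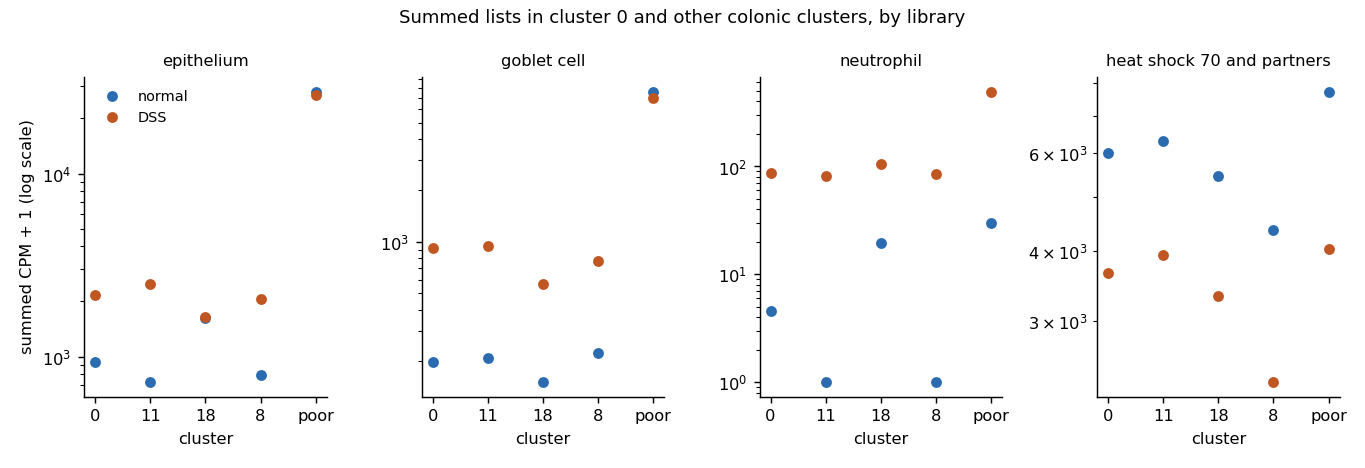
Summed level (y axis, CPM + 1 on a log scale) of the epithelium, goblet cell, neutrophil and heat shock lists in clusters 0, 11, 18 and 8 and in the Ptprc-poor cells, by library. Epithelium and goblet cell levels lie higher in the DSS library in clusters 0, 11 and 8, and heat shock levels lie lower in it in every group shown. Cluster 8 holds 7 cells in the normal library.

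The lists of lymphocyte function showed few differences past 2-fold beside the 1.25% and 0.623% over all genes. Of the 13 genes of cytotoxic and intraepithelial lymphocytes that were compared, 0 were higher and 1, Gzma, was lower, and their median log2 ratio was 0.18. Gzma stood at 118 and 41.1 CPM, and without the highest cell of each library it stood at 48.7 and 21.4 CPM, within 2-fold on the log2(CPM + 10) scale but not on the CPM alone. All 4 inhibitory receptors compared, 8 genes of residence and circulation and 5 lymphocyte cytokines stayed within 2-fold, with medians of 0.30, 0.12 and -0.11. Of the 9 genes of lymphocyte activation, Cd28 and Tnfrsf9 were past 2-fold lower, with a median of -0.30. The 12 NK receptor genes of the Klr family that were compared had a median of 0.17, and the 8 Gimap genes, GTPases of lymphocyte survival with close copies, 0.00. Of 9 interferon response genes 1, Ifi47, was past 2-fold higher and the median was -0.29. The 11 class I presentation genes had a median of -0.08. Class II presentation had Cd74 past 2-fold higher, with 5 and 30 UMIs, and Cd74 in the Ptprc-poor cells stood at 24.0 and 159 CPM.

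Genes of handling stress had a lower median in the DSS library, which Hspa1a and Hspa1b led. Of the 14 genes of dissociation stress 2, Hspa1a and Hspa1b, were past 2-fold lower, beside 0.623% of all genes compared, and the median was -0.46. Jun and Jund, factors of the immediate early response, stood at 1097 and 697 CPM and at 5095 and 3346 CPM, and in the Ptprc-poor cells at 1518 and 1501 CPM and at 2439 and 2049 CPM. Of the 8 genes of the heat shock 70 list 3 were past 2-fold lower, beside 0.623% of all genes compared. Hsph1 (92.9 and 38.0 CPM) was the other one, and the median was -0.84. The list summed to 6006 and 3652 CPM in cluster 0, 6305 and 3927 CPM in cluster 11 and 7726 and 4038 CPM in the Ptprc-poor cells. The lists of S phase (3 genes compared, median -0.06), G2/M phase (1 gene, 0.01), hypoxia and glycolysis (9 genes, 0.10), feedback of NF-kB (9 genes, -0.11) and apoptosis (9 genes, -0.12) had 0 genes past 2-fold. The lists of chemokine receptors (3 genes, -0.03), co-stimulation (1 gene, -0.34), Fc and pattern receptors (1 gene, 0.33), phagocyte scavenging (2 genes, -0.14) and B cell receptor and help (2 genes, -0.02) also had 0. Of 3 myeloid cytokines Ccl4 was past 2-fold higher, beside 1.25% of all genes compared, and the median was -0.36. Of 3 immunoglobulin constant genes Igkc was past 2-fold higher, beside the same 1.25%, and the median was 0.59. No gene of the wound and alternative activation list had enough UMIs to be compared.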

How the data were processed

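Single-cell libraries of normal and DSS colonic crypts (10x Genomics 3′ V3) were analysed. Per the labels and methods, the authors used Cell Ranger 3.0.0 with mm10, while the matrix header names 3.1.0, and Seurat 3.1.4. The deposited values are UMI counts, not normalized, of the cells the authors kept and annotated. The procedure that gave the colonic clusters is not given in the sources used here. The methods name a minimum of 1500 genes, but kept cells reach below it. For the cluster 0 cells, the table's counts (559288 and 656886 UMIs over 23775 shared genes) were checked against the library matrices and 0 entries differed. The columns left without a sample numbered 0.

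For each gene, the UMIs of the cluster 0 cells of a library were added up and divided by their total (Python 3.11.15, numpy 2.4.6, scipy 1.17.1). Ratios used a pseudocount of 10 CPM, genes with at least 30 UMIs over both libraries and a threshold of 2-fold. The step was tested on simulated data. TMM factors came from edgeR 4.0.16 (R 4.3.3) as an alternative. Cells are not replicates, so no p-value was computed. Marker shares were compared after thinning each cell to 2000 UMIs, unless called unthinned. Counts of cells with their percentages, the receptor classes and the genes within them were taken without thinning and depend on depth. The same holds for the shares of cells with epithelial UMIs. No doublet caller was run, and the methods describe no removal of doublets.

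The genes named were the 20 with the largest ratio to Ptprc-poor cells (at least 100 UMIs), the 12 highest and 12 lowest in the DSS library among genes with a UMI in at least 10% of cells of the higher library, and members of 28 cell type and 22 function lists. 1 of the genes that the rule names is not reported here. The members and lists were chosen with earlier results of these data known, and a few gene families were added later. Gene coordinates come from GENCODE M21 (mm10), matched by identifier for 23751 of 23810 genes.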

Additional observations from a re-analysis of the deposited data

Results flagged for a closer look

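Barcodes of the colonic libraries that the authors did not keep also held T cell UMIs. Of 2495 barcodes in the normal library 18 (0.721%, exact 95% interval 0.428 to 1.14) and of 2813 in the DSS library 28 (0.995%, 0.662 to 1.44) held at least 3 UMIs of the T cell genes Cd3d, Cd3e, Cd3g, Trac, Trbc1, Trbc2 and Trdc. These barcodes had median mitochondrial shares of 27.9% and 31.0%, and 14 and 20 of them were above 20%. Cd8a was in 6 and 20 of them and Cd8b1 in 0 and 7. They were used in no comparison.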

How the results depend on the processing

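No paired analysis was possible because each condition has 1 library, and for the same reason no replicate could be left out. The difference in the share of cluster 0 (DSS minus normal, -5.11 percentage points) reversed to 0.793 points with at least 1500 genes per cell, where the normal share was 6.42%. It was -26.7 points among cells with a Ptprc UMI (65.5% and 38.8%) and -33.2 points among cells of Ptprc-rich clusters (68.9% and 35.7%). Genes 2-fold higher and lower in the DSS library, 56 and 28 of 4493, became 134 and 66 of 7643 with at least 10 UMIs, 13 and 6 of 1633 with at least 100 UMIs and 125 and 54 with a pseudocount of 1 CPM. They were 6 and 10 among T cell-biased genes alone. Without cells holding UMIs of 2 or more epithelial genes, which left 91 normal and 25 DSS cells, 74 of 1787 genes were lower. The kept cells still held epithelial UMIs, with Spink4 at a log2 ratio of 3.34 and Reg3b at 3.55. Ratios of low genes shrink less with a pseudocount of 1 CPM by construction. The minimum of UMIs and the T cell-biased setting change which genes are counted, and the epithelial setting changes which cells are. The cause of the shifts was otherwise not tested. The denominator of Ptprc-rich clusters, the T cell-biased genes and the setting without X and Y genes were chosen after seeing the data. With TMM scaling they were 50 and 32, and the median of all genes was -0.02. Thinning to 1000 UMIs gave shares of 48.3% and 49.1% for Ptprc, 87.4% and 80.5% for Cd3e and 25.2% and 35.8% for Cd8a, and unthinned cells gave 86.8% and 89.9% for Ptprc, 92.5% in the DSS library for Cd3e and 66.7% for Cd8a. These shares follow the depth by construction. The other 23 such values stayed within 1.5 times (counts of genes) or within their interval (shares). Of the values for 16 single genes run under these settings, 152 stayed within their counting interval and 10 moved, with 0 reversed. The minimums of UMIs, the T cell-biased setting and the setting without X and Y genes leave a gene's own ratio unchanged by construction. Their values are among the 152 and could not move. Genes near 2-fold outside these, such as Fgr, Lef1 and Nabp1, were not run. Among the 16 the 2-fold call was lost by Ifi47 (0.76) without cells holding UMIs of 2 or more epithelial genes. It was also lost by Serpinb9 (0.62) with at least 1500 genes and Cd28 (-0.92 with Ptprc UMI cells only, -0.98 as a mean over cells). Bcl2 passed it at 1.01 with at least 1500 genes. Ccl4 went to 4.01 without cells holding UMIs of 2 or more epithelial genes, a setting of 25 DSS cells.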

Other observations

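Kit, the receptor of stem cell factor, had a UMI in 17.5% of normal and 17.5% of DSS cluster 0 cells thinned to 2000 UMIs, against 1.04% and 1.95% of Ptprc-poor cells, at 113 CPM (86.5 to 144) and 105 CPM (81.7 to 133), beside 10.4 and 9.12 CPM in the Ptprc-poor cells. Ighm was in 51.0% and 52.8% of unthinned cluster 0 cells, and the highest number of Ighm UMIs in 1 cell was 5 in the normal and 8 in the DSS library, so its UMIs were spread over many cells. The Ly49 genes Klra7 and Klra5 were carried by a minority of cells, Klra7 by 37 and 30 and Klra5 by 17 and 15. The cells that held any had medians of 3 and 3 UMIs for Klra7 and of 2 and 3 UMIs for Klra5.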
